A study of Sus scrofa with 13 samples.

Results

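Collagen cross-linking and hydroxylating enzymes are described here through 5-hydroxymethylcytosine (5hmC), the oxidised form of DNA methylation, at 10 of the 27339 genes in the count tables: LOX, LOXL1, LOXL2, LOXL3, LOXL4, PLOD1, PLOD2, PLOD3, P4HA1 and P4HA2. They were chosen by gene symbol, with earlier results of these data known, and all 10 were found. DNA fragments carrying 5hmC had been captured with an antibody from adipose-derived mesenchymal stem cells of pigs and sequenced. All cells came from abdominal fat of female domestic pigs fed a 2% high-cholesterol diet, 3 weeks after a coil had been placed to narrow 1 renal artery, so no library from healthy pigs is compared. The 6 hypoxia libraries came from cells held at 1% oxygen for 48 hours and the 6 normoxia libraries from cells at 20% oxygen. Each group had 1 library for each of the numbers 110, 16, 21, 33, 49 and 4 that start the sample titles. The labels do not say what these numbers stand for. The p-values below therefore reflect library-to-library spread, part of which may be technical.

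Fibrillar collagen is modified inside the cell before it is secreted. Prolyl 4-hydroxylases hydroxylate proline, which stabilises the triple helix, and lysyl hydroxylases hydroxylate lysine. Both kinds of enzyme need oxygen, iron and 2-oxoglutarate. Outside the cell, the copper-dependent lysyl oxidases oxidise lysine and hydroxylysine, from which the covalent cross-links of collagen and elastin form. Several of these genes are known transcriptional targets of the hypoxia-inducible factors in other settings. The values below are reads from DNA in which 5hmC was captured. They do not measure RNA, protein or enzyme activity.

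The deposited counts, with the rows naming no gene, summed to 15569948 to 27428482 reads per library, which need not be all reads sequenced. Of these, 263578 to 714002 per library (1.69 to 2.89%) were assigned to a gene. The part of each gene that was counted is not given in the sources used here. These percentages therefore do not give the share of reads inside whole genes. The 10 enzyme genes together received 153 to 453 reads per library. The fewest, 153, were in normoxia 21, which also had the fewest gene reads. Values are given as CPM, gene counts scaled to library sizes that edgeR adjusted by its TMM method, which evens out the share taken by a few genes. Levels are not compared between genes, because the length over which reads were counted is not given in the sources used here. Reads lay at genes that mark every cell type listed, as DNA reads can, and no listed marker was at 0 throughout. The summed CPM of 10 stromal markers was 782 to 1146 in hypoxia and 787 to 1564 in normoxia. That of 4 adipocyte markers was 211 to 425 and 117 to 266. Whether such differences have a part in the results below was not tested, and 5hmC reads cannot check the cell type label.

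None of the 8 enzyme genes that could be tested passed the test between hypoxia and normoxia. The comparison asked whether low oxygen altered the 5hmC signal at these genes. LOXL2 had the largest difference among the tested members, with a higher CPM in hypoxia in 5 of 6 numbers. LOX, which had too few reads to enter the test, was lower in CPM in hypoxia in 6 of 6 numbers. In number 21 the lower CPM of LOX came from scaling alone, at 4 reads in each library. The other genes had both signs across the numbers.

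Of the 10 genes, 8 had enough reads in enough libraries for edgeR's quasi-likelihood test, which took in 11868 genes. LOX and PLOD3 did not pass the filter on low counts. At an adjusted p under 0.05, 0 of the 8 were called, where 0 of all 11868 genes were called (0%). With the number in the title as a block, 0 of the 8 were called, where 4 of all genes were (0.0337%). At an unadjusted p under 0.05, 1 of the 8 (LOXL2) was found in each fit. That share was 2.73% of all tested genes without the block and 7.09% with it. DESeq2's Wald test, run on all 25337 genes with any read, also called 0, with 511 at an unadjusted p under 0.05. The log2 fold changes of the 8 were positive for 5 and negative for 3, with a median of 0.09, beside a median of -0.04 over all tested genes, 43.4% of which were positive. With library size as the only scaling, 7 of the 8 were positive, beside 51.2% of all tested genes. In sequencing lane 7 alone the median of the 8 was -0.015, beside -0.046 over all tested genes.

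**Figure D1:**
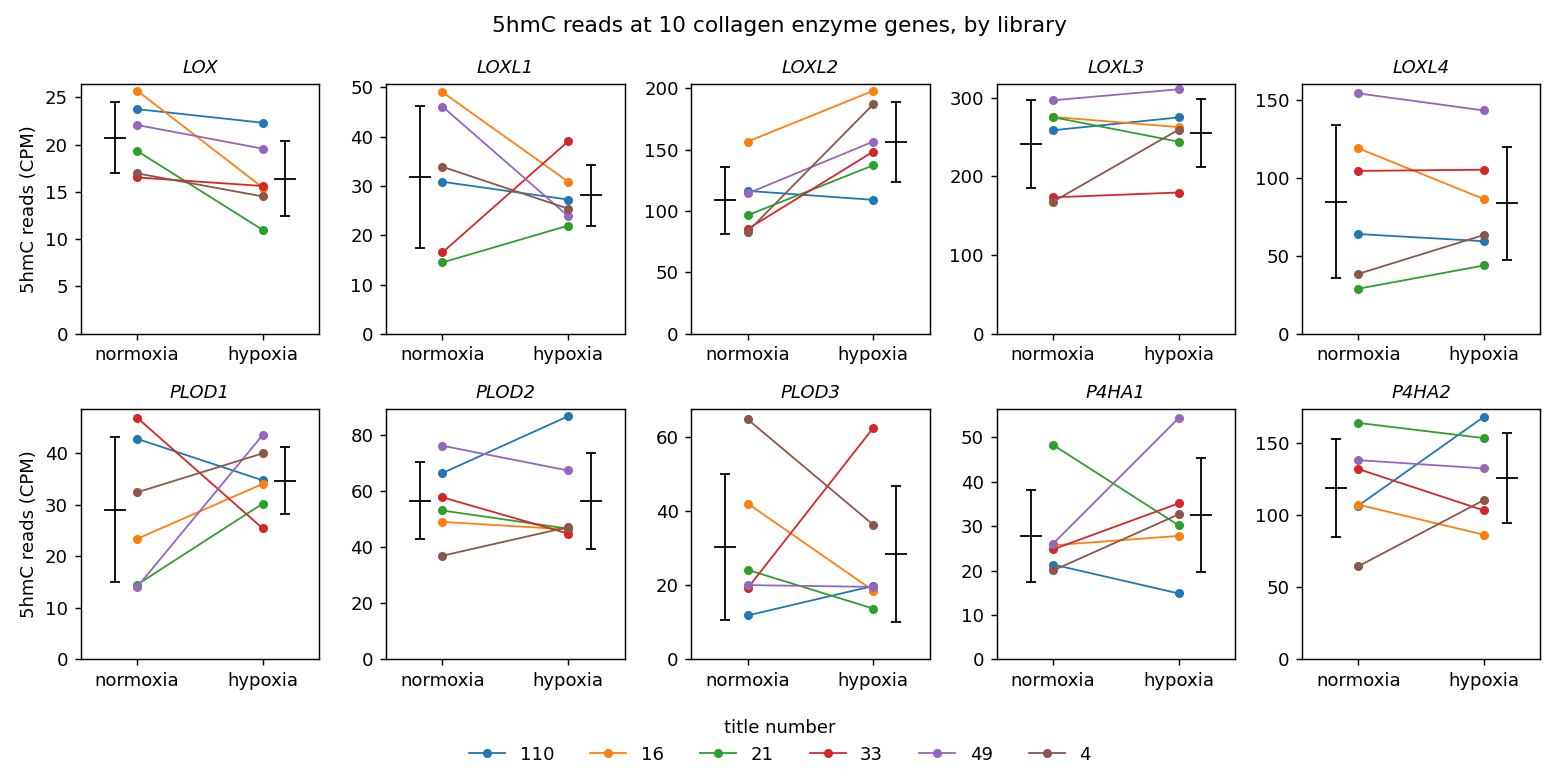
Each panel plots the 5hmC reads of 1 gene in CPM (vertical axis, starting at 0 and scaled per gene) in normoxia and hypoxia. Points are libraries, lines join the libraries of 1 title number, and bars are the mean ± SD of 6 libraries. The lines of LOX all slope down and those of LOXL2 slope up except for number 110, while the lines of the other genes cross.

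Among the lysyl oxidases, LOXL2, whose product acts on collagen type IV of basement membranes among other substrates, had 109, 152 and 198 CPM in hypoxia (lowest, median and highest of 6 libraries). In normoxia it had 83.2, 105 and 157 CPM. The 2 ranges overlapped, since normoxia 16 lay above hypoxia 110, 21, 33 and 49, and hypoxia 110 lay below normoxia 110, 16 and 49. Mean CPM was 156 ± 32.6 in hypoxia against 109 ± 27.3 in normoxia (SD, n = 6 per group), on 20 to 103 reads per library. The log2 fold change was 0.52 ± 0.225 (SE; 95% interval 0.05 to 0.98), and edgeR gave a p of 0.0318 and an adjusted p of 1.00. Ordered by p, LOXL2 stood 171st of the 11868 genes.

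With the number as a block, LOXL2 stood at 0.54 ± 0.193 on the log2 scale (SE), where edgeR gave a p of 0.00915 and an adjusted p of 0.542. Within the numbers, its log2 ratio of hypoxia to normoxia was -0.09 in 110, 0.34 in 16, 0.48 in 21, 0.78 in 33, 0.45 in 49 and 1.16 in 4. Number 4 thus had the widest gap, from 83.2 to 187 CPM, and number 110 the narrowest. Of all tested genes, 26.3% had at least 5 of 6 numbers in 1 direction. Within sequencing lane 7 (numbers 110, 16, 21 and 33) the log2 fold change was 0.37 ± 0.303, and within lane 8 (numbers 49 and 4) 0.84 ± 0.433, each with an edgeR adjusted p of 1.00. Without both libraries of number 4 the blocked value was 0.40 ± 0.191, with an unadjusted edgeR p of 0.0511. The pairing of numbers 33 and 4, which had the 2 highest ratios, is in doubt, as described below. Without both of these numbers the blocked value was 0.30 ± 0.211, with an unadjusted edgeR p of 0.175. That fit was chosen after seeing the data.

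LOX, the founding lysyl oxidase that cross-links fibrillar collagen and elastin, had 4 to 11 reads per library. Its CPM were 10.97, 15.5 and 22.3 in hypoxia (lowest, median and highest) and 16.5, 20.7 and 25.7 in normoxia. The ranges overlapped, while the hypoxia library was the lower one in each of the 6 numbers. The means were 16.4 ± 3.98 CPM in hypoxia against 20.7 ± 3.73 in normoxia (SD, n = 6 per group). Lower values in hypoxia in 6 of 6 numbers were found for 2.59% of tested genes and for 1.76% of the 25337 genes with any read. Within the numbers, the log2 ratio of LOX was -0.08 in 110, -0.11 in 33, -0.16 in 49 and -0.20 in 4. It was -0.66 in 16 and -0.82 in 21, which had the widest gaps. In number 21 both libraries had 4 reads, so that gap came from the scaling to library size. In number 33 the hypoxia library had more reads, 8 against 6, but the lower CPM. In a fit of all 25337 genes without a filter on counts, the log2 fold change for LOX was -0.32 ± 0.347 (SE) and its edgeR adjusted p 1.00.

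LOXL1, a lysyl oxidase linked to elastic fibre upkeep, had 21.9, 26.3 and 39.0 CPM in hypoxia and 14.5, 32.4 and 49.1 in normoxia. The normoxia libraries spanned the hypoxia ones, with an SD of 14.4 CPM against 6.18. Its log2 fold change was -0.23 ± 0.309 (SE; 95% interval -0.87 to 0.41), on 3 to 23 reads per library. Number 33, whose pairing is in doubt as described below, had a log2 ratio of 1.16, on 20 reads in hypoxia and 6 in normoxia. Number 49 had one of -0.91, on 11 and 23 reads. The sign of LOXL1 thus differed between numbers, and whether this exceeds counting noise was not tested.

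LOXL3, another member of the family, was read well, with 57 to 148 reads per library. It had 180, 261 and 311 CPM in hypoxia and 168, 267 and 297 in normoxia. The groups covered nearly the same range, and the log2 fold change was 0.08 ± 0.210 (SE; 95% interval -0.35 to 0.52). In 5 of 6 numbers its log2 ratio lay between -0.18 and 0.09, and number 4 stood at 0.63.

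LOXL4, the remaining lysyl oxidase-like gene, varied more between numbers than between oxygen levels. It had 43.9, 75.0 and 143 CPM in hypoxia and 29.0, 84.4 and 154 in normoxia. Both libraries of number 49 were the highest of their group and both of number 21 the lowest. Its log2 fold change was -0.04 ± 0.352 (SE) without the block and 0.05 ± 0.212 with it.

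**Figure D2:**
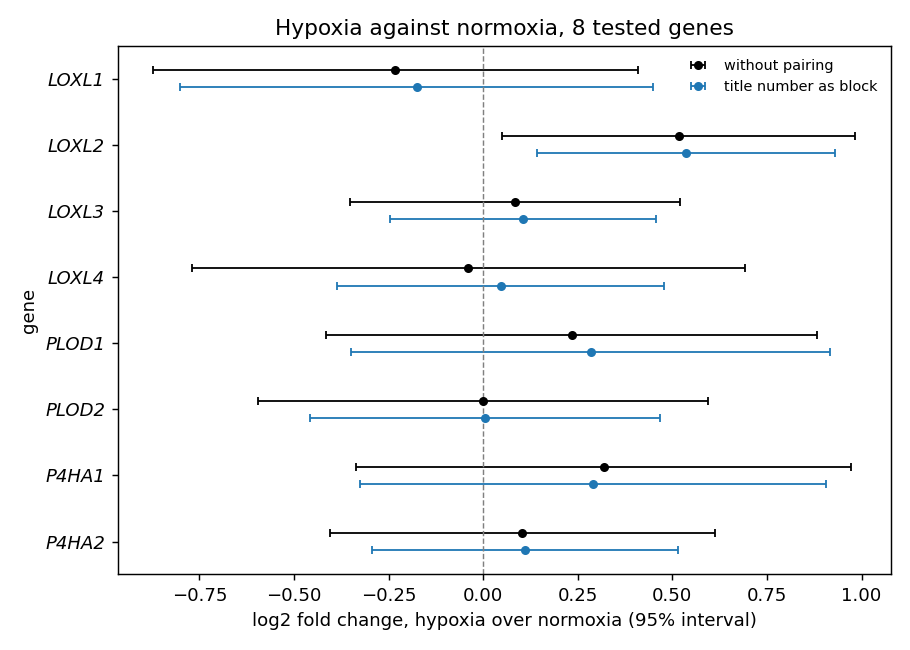
The horizontal axis is the log2 fold change of hypoxia over normoxia with its 95% interval for the 8 tested genes, in black without pairing and in blue with the title number as a block. The intervals of LOXL2 (0.05 to 0.98 and 0.14 to 0.93) lie above 0 before adjustment for the number of genes, and those of the other 7 genes span 0.

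The lysyl hydroxylases act in the endoplasmic reticulum. PLOD2, which hydroxylates the lysines of collagen telopeptides and so sets the kind of cross-link, had 44.9, 46.9 and 86.7 CPM in hypoxia and 37.0, 55.5 and 76.2 in normoxia. The mean was 56.5 ± 17.0 CPM in hypoxia against 56.6 ± 13.7 in normoxia (SD, n = 6 per group), on 11 to 38 reads per library. The log2 fold change of PLOD2 was -0.00012 ± 0.286 (SE; 95% interval -0.59 to 0.59). The hypoxia library was higher in 2 of 6 numbers, 110 and 4, and lower in the other four.

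PLOD1, the lysyl hydroxylase that acts mainly on the helical part of collagen, had 25.4, 34.3 and 43.5 CPM in hypoxia. In normoxia its CPM were 14.0, 27.9 and 46.8, a wider range that enclosed the hypoxia libraries. Its log2 fold change was 0.23 ± 0.313 (SE; 95% interval -0.42 to 0.88), on 3 to 22 reads per library. The log2 ratio of PLOD1 ran from -0.87 in number 33 to 1.57 in number 49, where 7 reads in normoxia stood against 20 in hypoxia. Within lane 7 the log2 fold change was -0.10 ± 0.395 and within lane 8 it was 0.85 ± 0.550.

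PLOD3, which carries glycosyltransferase activity beside lysyl hydroxylase activity, had 5 to 42 reads per library and did not enter the test. Its CPM were 13.7, 19.7 and 62.5 in hypoxia and 11.9, 22.1 and 64.7 in normoxia. In each group 1 library stood well above the median, hypoxia 33 and normoxia 4. Their titles start with different numbers, and the log2 ratio of PLOD3 was 1.62 in number 33 and -0.82 in number 4. Over all tested genes, hypoxia 33 correlated best with normoxia 4, so the pairing behind these ratios is in doubt. In the fit without a count filter PLOD3 had -0.09 ± 0.390 (log2 fold change ± SE) and an edgeR adjusted p of 1.00.

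The prolyl 4-hydroxylase is a tetramer of catalytic alpha subunits with P4HB. P4HA1, the main alpha subunit in most cells, had 14.9, 31.4 and 54.3 CPM in hypoxia and 20.0, 25.2 and 48.3 in normoxia. The means were 32.5 ± 12.8 CPM in hypoxia against 27.7 ± 10.4 in normoxia (SD, n = 6 per group), on 6 to 25 reads per library. The log2 fold change was 0.32 ± 0.316 (SE; 95% interval -0.34 to 0.97). It was -0.05 ± 0.405 within lane 7 and 0.95 ± 0.544 within lane 8, and 0.12 without hypoxia 49. The highest normoxia library, number 21, had 48.3 CPM from 10 reads, with the next at 26.1 CPM.

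P4HA2, the second alpha subunit, had 86.5, 122 and 168 CPM in hypoxia and 64.7, 120 and 164 in normoxia. The groups overlapped over most of their range. With 28 to 69 reads per library, its log2 fold change was 0.10 ± 0.245 (SE; 95% interval -0.41 to 0.61). Numbers 110 and 4 had log2 ratios of 0.65 and 0.77, and the other four lay between -0.35 and -0.06. Without normoxia 4 the log2 fold change of P4HA2 was -0.02.

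**Figure D3:**
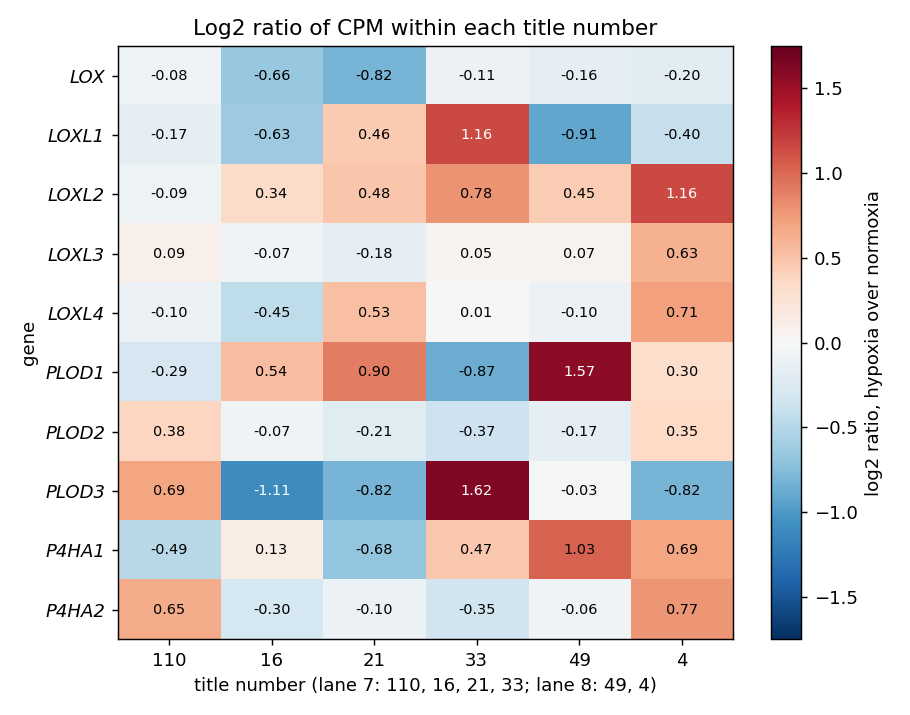
Each cell is the log2 ratio of CPM in hypoxia over normoxia for 1 gene (row) within 1 title number (column), with 0.5 reads added, red for higher and blue for lower in hypoxia. The row of LOX is blue throughout, from -0.82 to -0.08, the row of LOXL2 is red except for -0.09 in number 110, and most of the column of number 4 is red.

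The numbers differed in how these genes moved. In number 4, 7 of the 10 genes were higher in hypoxia, with a median log2 ratio of 0.49. In the other numbers 3 to 6 of the 10 were higher, with medians from -0.19 in number 16 to 0.03 in number 33. The pairing of numbers 33 and 4 is in doubt, since hypoxia 33 correlated best with normoxia 4 and hypoxia 4 with normoxia 33 over all tested genes, so the ratios within these numbers carry that doubt. In the blocked fit, 7 of the 8 tested genes had a positive log2 fold change, beside 46.6% of all tested genes. Without number 4 it was 3 of 8. The blocked log2 fold changes (± SE) were -0.18 ± 0.307 for LOXL1, 0.11 ± 0.173 for LOXL3 and 0.28 ± 0.310 for PLOD1. They were 0.0049 ± 0.227 for PLOD2, 0.29 ± 0.302 for P4HA1 and 0.11 ± 0.198 for P4HA2. Summed over all 10 genes, the hypoxia libraries had 817 ± 83.0 CPM and the normoxia libraries 750 ± 128 (SD, n = 6 per group), higher in hypoxia in 4 of 6 numbers. The 5 lysyl oxidases summed to 539 ± 74.3 and 488 ± 121 CPM, the 3 lysyl hydroxylases to 120 ± 20.2 and 116 ± 14.4, and the 2 alpha subunits to 158 ± 30.5 and 147 ± 42.7. Each of these sums overlapped between the groups. Such sums follow the genes with the most reads, and LOXL2 alone had means of 156 and 109 CPM. Among the other lysyl oxidases, LOXL3 had a higher mean in hypoxia, and LOX, LOXL1 and LOXL4 a lower one.

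Pairwise correlations between the genes across the 12 libraries had both signs. Over their 45 pairs, Spearman's rho of log2 CPM was positive for 23 and negative for 22, with a median of 0.02. As a description, the highest value was 0.69 for PLOD2 with P4HA2, followed by 0.66 for LOX with PLOD2 and 0.62 for LOXL3 with PLOD2. The lowest was -0.53 for LOXL1 with P4HA2. The points share libraries, numbers and sequencing depth. Some genes had few reads, such as LOX with 4 to 11 per library, so a low rho does not show that genes vary independently.

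The genes around these enzymes in the making of collagen were taken from a list of 49, of which 39 were tested. In the fit without the block, 0 passed the test, where 0 of all 11868 tested genes did. An unadjusted p under 0.05 was found for 0 of the 39, beside 2.73% of all tested genes. Their log2 fold changes were positive for 13 and negative for 26, with a median of -0.15, beside -0.04 over all tested genes. The median was -0.075 without normoxia 49 and -0.052 in the blocked fit without number 110. At a minimum count of 20, 11 genes of the list were positive and 13 negative. Of 11 genes for hydroxylation and folding in the endoplasmic reticulum 7 were negative, and of 7 procollagen processing genes 5. Of 10 fibre substrates 8 were negative, and of 11 assembly and copper supply genes 6. Over all tested genes, 6713 of 11868 were negative.

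P4HA3, the third prolyl 4-hydroxylase alpha subunit, had 253, 344 and 448 CPM in hypoxia and 216, 277 and 341 in normoxia. The hypoxia library was higher in 4 of 6 numbers, and the log2 fold change of 0.33 ± 0.199 (SE) did not pass edgeR's test (adjusted p 1.00). P3H4, a non-catalytic partner of lysyl hydroxylation complexes, had 21.6, 30.5 and 38.4 CPM in hypoxia and 10.0, 16.9 and 42.0 in normoxia, and a log2 fold change of 0.47 ± 0.328. P3H1, a prolyl 3-hydroxylase, had 20.0, 27.6 and 32.6 CPM in hypoxia and 24.1, 37.2 and 49.3 in normoxia, and a log2 fold change of -0.47 ± 0.281. All of these groups overlapped. In the blocked fit without number 4, P4HA3 had 0.17 and P3H1 -0.26, and P3H4 had 0.79 without normoxia 16.

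FBLN5, which brings lysyl oxidases to elastic fibres, had 18.5, 33.9 and 52.0 CPM in hypoxia and 38.0, 48.8 and 64.2 in normoxia. It was lower in hypoxia in 5 of 6 numbers, with a log2 fold change of -0.51 ± 0.276 (SE). COL3A1, a fibrillar collagen chain and substrate of the enzymes, had 134, 337 and 396 CPM in hypoxia and 185, 407 and 614 in normoxia. Its log2 fold change was -0.45 ± 0.296 without the block and -0.41 ± 0.177 with it, and -0.28 without normoxia 33. In the blocked fit COL3A1 was the 1 gene of the 39 tested from the list with an unadjusted p under 0.05 (edgeR p of 0.0275, adjusted p of 0.659). Over all tested genes, 7.09% had such a p in the blocked fit.

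**Figure D4:**
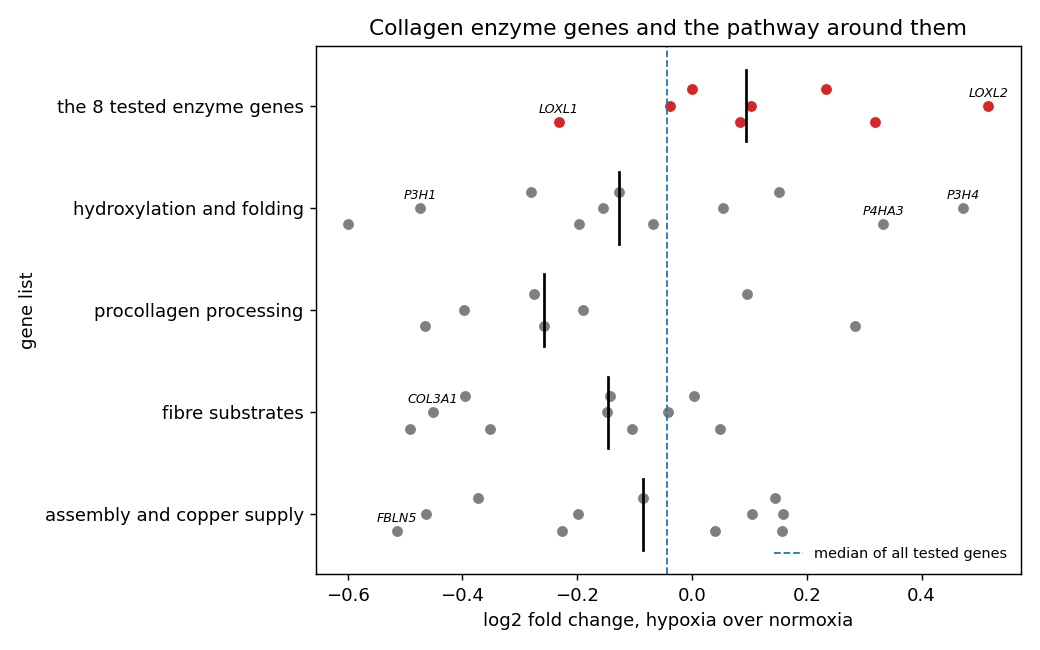
Each point is the log2 fold change of hypoxia over normoxia (horizontal axis) of 1 tested gene, red for the 8 enzyme genes and grey for the 39 other genes of collagen making, in rows by role. Black bars are medians and the dashed line is the median of all tested genes (-0.04). The enzyme genes have a median of 0.09 and the rows below them medians of -0.26 to -0.09.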

How the data were processed

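Per the labels' protocols, sonicated and denatured DNA was incubated with an anti-5hmC antibody, and libraries were sequenced from both ends. The submitters' processing notes name Bowtie2, Picard, HTSeq, MACS2 and edgeR. For genome build, annotation, counted feature and settings, nothing is given in the sources used here. The authors deposited raw counts per gene symbol for each library, which were used as deposited. The peak lists were not used here, and 1 input sample in no group was not analysed here.

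Rows naming no gene were left out. They held reads outside features (88.0 to 93.0% of reads), of low alignment quality (4.12 to 10.3%) or ambiguous (0.0050 to 0.0095%). Another, 1 row without a name, held 0 reads. All 66 library pairs differed beyond sampling noise, with chi-square at least 1.31 times its degrees of freedom. Groups follow the treatment label. All genes were fitted with edgeR 4.0.16 in R 4.3.3 (filterByExpr, minimum count 10 and total 15; TMM; glmQLFit and glmQLFTest), with Benjamini-Hochberg adjustment over all tested genes and a threshold of 0.05. SE is the size of the log2 fold change divided by the square root of F. The fit, with and without the block, was also run on counts simulated from these libraries with known fold changes, to check the code. DESeq2 1.42.0 was an alternative.

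After group means were removed, libraries sharing a title number correlated at 0.136 to 0.478 over tested genes. This was above the limit of 0.1 in 6 of 6 numbers. Among the fits, the number served as a pairing only in those with the block, and the main fit left it out. The median SE over all tested genes was 0.294 without the block and 0.248 with it. Of the hypoxia libraries, 4 of 6 correlated best with their own number, and those of 33 and 4 with each other's. Named genes are the 10 members and, from the list of 49, those with an unadjusted p under 0.05 in either fit and the 2 with the smallest p in each direction without the block. Members and lists were chosen with earlier results of these data known. Alternatives covered scaling, count filter, tool, block, lane and left-out libraries.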

Additional observations from a re-analysis of the deposited data

Results flagged for a closer look

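In P4HA1, the normoxia library of number 21 stood apart from the other 5 normoxia libraries, with 48.3 CPM. The gap to the next library was 0.786 of the whole range, above Dixon's 95% critical value for 6 samples. The value rests on 10 reads, in the library with the fewest gene reads. Without this library the log2 fold change of P4HA1 was 0.48 in place of 0.32, with an edgeR adjusted p still above the threshold. It was 0.12 without hypoxia 49 and 0.086 in the blocked fit without number 49. It was the 1 flagged group among 20 checked, and chance flags about 1 in 20.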

How the results depend on the processing

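Members called stayed at 0 under every alternative run, as did called genes of the list of 49. The 10 enzyme genes gave 279 values under alternatives, of which 229 kept the sign and 50 turned it, and none passed the threshold (lowest adjusted p 0.302, for LOXL2 in the blocked fit without number 21). LOXL2 stayed positive throughout, from 0.30 (without numbers 33 and 4, with the block, chosen after seeing the data) to 0.84 (lane 8). LOX stayed negative, from -0.42 to -0.14. With the replicate block 4 genes were called over all genes, also with library size as the only scaling (chosen after seeing the data), and 0 to 12 when each number was left out of the blocked fit. The pairing changed no other call. When each library was left out without the block, 0 genes were called.

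Signs turned as follows (log2). In lane 7 alone: LOXL1 0.049, LOXL3 -0.020, PLOD1 -0.095, PLOD3 0.28, P4HA1 -0.051 and the members' median -0.015. In lane 8 alone: LOXL4 0.14 and PLOD2 0.061. With the replicate block: LOXL4 0.046 and PLOD2 0.0049. With library size only: LOXL4 0.014 and PLOD2 0.051, and with the block added 0.094 and 0.055. PLOD2 was 0.013 without a count filter and 0.024 at a minimum count of 20. Without numbers 33 and 4, with the block, LOXL3 was -0.011 and PLOD2 0.0083. Leaving out each library, or each number in the blocked fit, gave -0.44 to 0.0055 for LOXL1, -0.0013 to 0.18 for LOXL3, -0.26 to 0.22 for LOXL4, -0.15 to 0.12 for PLOD2, -0.47 to 0.33 for PLOD3, -0.021 to 0.23 for P4HA2 and -0.0091 to 0.22 for the members' median. The cause of these changes was not tested. The same left-out fits gave 0.033 to 0.54 for PLOD1, 0.086 to 0.48 for P4HA1, -0.59 to -0.28 for COL3A1, -0.73 to -0.39 for FBLN5, -0.65 to -0.26 for P3H1, 0.17 to 0.45 for P4HA3, 0.31 to 0.89 for P3H4 and -0.22 to -0.052 for the median of the list of 49. LOX and PLOD3, with 4 to 11 and 5 to 42 reads per library, did not pass the count filter. PLOD3 had 167 reads in total, as did PLOD1, which entered the test.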

Other observations

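In the RefSeq gene table of assembly Sscrofa11.1, used here for names and neighbours only, all 10 symbols matched, and 6 of the genes overlap another gene. Reads in such overlaps cannot be assigned by strand, since they come from DNA. Over all genes, 0.0050 to 0.0095% of reads per library were counted as ambiguous. LOX overlaps LOC100525452 (log2 fold change -0.03 ± 0.306, SE), LOXL3 overlaps HTRA2, PLOD3 overlaps ZNHIT1, and P4HA1 overlaps NUDT13 (0.01 ± 0.285). LOXL1, with 162 reads over all libraries, overlaps the long non-coding RNA gene LOC110261566, which had 2646 reads and a log2 fold change of -0.04 ± 0.256. P4HA2 overlaps PDLIM4 (-0.52 ± 0.297), which encodes a PDZ and LIM domain protein, and the transporter gene SLC22A4 (-0.16 ± 0.298). LOXL2 overlaps no gene in the table. Its neighbours are ENTPD4, with 787 reads and a log2 fold change of 0.0014 ± 0.244, and R3HCC1, which had 35 reads and was not tested. None of these genes passed edgeR's test (each tested one with an adjusted p of 1.00). The differences from LOXL2 and P4HA2 were not tested.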
